A study of Mus musculus with 8 samples.

Results

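The genes of acid and bicarbonate transport in the kidney were examined here, together with genes that mark the acid-base cells of its collecting duct, in mice without functional CTRP1. They were taken from the deposited table by gene name: the subunits of the vacuolar proton pump (Atp6v1 and Atp6v0), the carbonic anhydrases (Car with a number), the Slc4, Slc26 and Slc9 transporters, and Foxi1, Rhbg, Rhcg, Kit and Insrr, with pseudogenes dropped. This gave 73 of the 35275 genes in the table. There were 13 subunits of the V1 part of the pump, 9 of its V0 part, 16 carbonic anhydrases, 10 Slc4, 11 Slc26 and 9 Slc9 genes, and 5 single genes. Each of 8 libraries was made from poly-A RNA of the whole left kidney of a different male mouse, 40 weeks old and given a diet with 60% of its calories as fat from the age of 6 weeks. The 4 KO mice were Ctrp1-/- and the 4 WT mice were their +/+ littermates from crosses of heterozygotes, all on a C57BL/6J background. The KO allele (strain B6;129S5-C1qtnf1tm1Lex/Mmucd) lacks the coding region of exon 4 of C1qtnf1, the gene of CTRP1, and some of its 3' UTR. It is carried by every cell of the mouse, and it came from 129S5/Sv embryonic stem cells crossed to C57BL/6J for more than 6 generations, so sequence near it may still differ between the groups in origin. Both groups were fed the high-fat diet, and no lean group was analysed here.

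Intercalated cells of the collecting duct set the final acid content of urine. In type A cells the vacuolar proton pump (V-ATPase) secretes acid into the urine while the anion exchanger AE1 (Slc4a1) returns bicarbonate to the blood, and in type B cells pendrin (Slc26a4) secretes bicarbonate in exchange for chloride. Upstream, the proximal tubule reclaims most of the filtered bicarbonate through the sodium-proton exchanger NHE3 (Slc9a3), the bicarbonate cotransporter NBCe1 (Slc4a4) and membrane-bound and cytosolic carbonic anhydrases, enzymes that interconvert carbon dioxide and bicarbonate.

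Foxi1, a forkhead transcription factor, is required for the intercalated cell fate, so the promoters of the genes were searched for a forkhead motif, TGTTTAC, on both strands (GTAAACA on the other). RefSeq promoters (build GRCm38.p6, 250 bases before to 50 bases after each start) were found for 50 of the 73 genes, 62 promoters in all. The motif stood in 3 of these 62 promoters, against 3.65% of the 32851 promoters of all genes. The 3 windows are shown because one belongs to the pump subunit B1, an intercalated-cell isoform. Capitals mark the motif and each line reads 5' to 3' on the strand of its gene.
Atp6v1b1: ccagcttcccTGTTTACagtcaacctg
Slc26a1: tttggaacctGTAAACAggaccaaggc
Car5a: cttgcccagcTGTTTACcaggccaaag
The window of Atp6v1b1 is chr6:83742909-83742935 (plus strand), with its motif starting at position -98 from the start site. That of Slc26a1, a sulfate transporter, is chr5:108674847-108674873 (minus strand, motif at -67). That of Car5a, a mitochondrial carbonic anhydrase, is chr8:121945005-121945031 (minus strand, motif at -109). A match of letters does not show binding, and its absence from the other windows says nothing about Foxi1.

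The 8 libraries held 17884140 to 20344859 reads, and 19058 to 19467 genes were above 0 in each. C1qtnf1, the targeted gene (chromosome 11, 118428203 to 118449963, mm10), was at 0.883, 0.322, 0.6 and 0.633 FPKM in KO replicates 1 to 4, and at 5.34, 5.27, 5.53 and 5.55 FPKM in WT replicates 1 to 4. FPKM are fragments corrected for the length of the gene and the depth of the library. KO was lower by a log2 fold change of -2.0 ± 0.11 (SE; adjusted p = 2.35e-05 in limma), and every library matched its label. The reads of an opposite-strand gene, Gm11747, that shares exon bases with it could not be separated. KO replicate 2 stood apart from the other libraries. Its mitochondrially encoded genes made up 13.7% of its summed FPKM, against 5.49% to 8.84% in the other 7 libraries, and weights estimated from the spread of all genes gave it 0.1, against 0.637 to 2.31 elsewhere. Results are therefore given with and without it.

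The kidneys expressed most of the set. Of the 73 genes, 54 had a mean of at least 1 FPKM over the 8 libraries and were tested, 19 were below this level, and 3 of those (Atp6v1e2, Car10 and Slc26a5, the motor protein of hearing) were at 0 in every library. The tested genes numbered 12 V1 subunits, 9 V0 subunits, 11 carbonic anhydrases, 7 Slc4, 5 Slc26 and 5 Slc9 genes and all 5 single genes. None of the 54 differed between KO and WT at an adjusted p under 0.05 (limma on log2(FPKM + 1), Benjamini-Hochberg over all genes tested), and limma-voom on the reads worked back from the FPKM also called 0. Among all 12118 genes tested, 0.0413% were called, 0.0165% higher and 0.0248% lower in KO. The smallest adjusted p in the set was 0.67 (limma), for Car12. An unadjusted p under 0.05 was found for 5 of the 54 genes by limma and for 5 by limma-voom, against 5.96% of all genes by limma. These were Slc9a8 and Car8, higher in KO, and Car12, Car14 and Atp6v0a4, lower in KO. Over all genes 3.49% were higher and 2.47% lower at this level. Without KO replicate 2, again 0 of the 54 passed the adjusted threshold, against 0.173% of all genes (0.0743% higher and 0.099% lower), and the smallest adjusted p in the set was 0.27 (limma). An unadjusted p under 0.05 was then found for 9 of the 54, against 11.4% of all genes. The 5 higher in KO, against 5.92%, included Car8, Slc9a8, Atp6v0a1 and Slc4a2, and the 4 lower, against 5.52%, were Car12, Atp6v0a4, Car14 and Car5b.

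The log2 fold changes of the set, on the log2(FPKM + 1) scale, had a median of -0.03, beside -0.01 over all genes tested. They were above 0 for 25 genes and below 0 for 29, where 47.2% of all genes tested were above 0, and ran from -0.45 (Car9) to 0.27 (Slc9a8). The 95% interval of the difference lay within 1.5-fold in either direction for 47 of the 54 genes and within 2-fold for all 54, near the shares over all genes tested, 87.6% and 98.2%. Without KO replicate 2 these numbers were 52 and 53, beside 94.0% and 98.1% of all genes, and the one beyond 2-fold was Car9. In whole-kidney RNA, fewer cells of a type and less RNA per cell cannot be told apart. The libraries come from separate mice. The p-values set the group difference against the spread between these mice, estimated in part from the other genes.

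**Figure D1:**
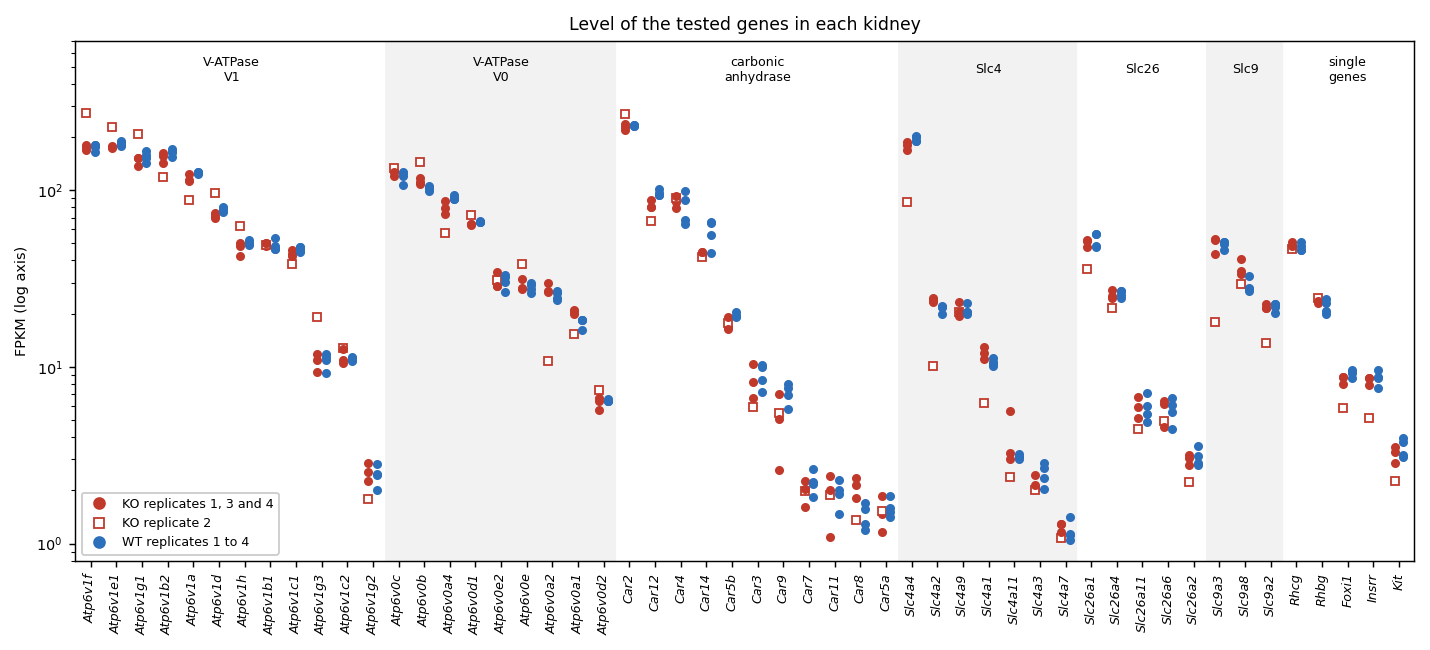
FPKM (log axis) of 52 of the 54 tested genes in each kidney, by family and in order of level, with KO values in red left of WT values in blue. KO replicate 2 is drawn as an open square and lies at the edge of many genes, such as Atp6v1f at 275 FPKM and Slc4a4 at 85.4 FPKM.

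**Figure D2:**
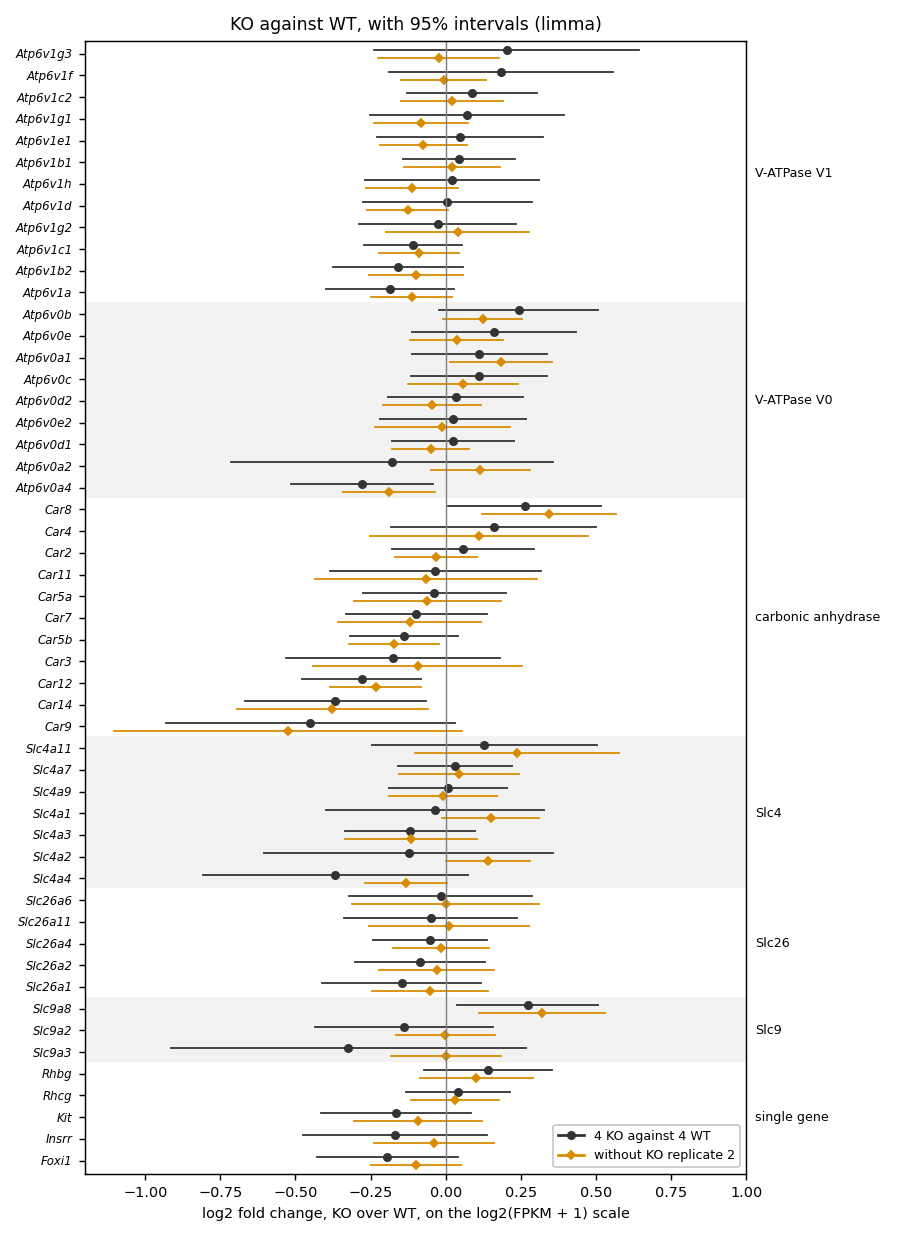
Log2 fold changes of KO over WT with 95% intervals (limma) for 52 of the 54 genes, by family, for 4 KO against 4 WT mice (black) and without KO replicate 2 (orange). Nearly all points lie close to 0, between -0.45 and 0.27 with all mice, and the orange intervals are mostly narrower.

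The V1 part of the pump is its cytosolic motor, which splits ATP. Its catalytic subunit A (Atp6v1a) was at 123, 87.8, 112 and 114 FPKM in KO mice, and at 126, 125, 127 and 124 FPKM in WT mice. All 4 KO values lay below all 4 WT values, KO replicate 1 by a narrow margin. This gave a log2 fold change of -0.19 ± 0.10 (SE; adjusted p = 0.85 in limma), and -0.11 without KO replicate 2. Separation of this kind, every KO value below every WT value in the deposited FPKM, was found for 5 of the 54 genes (Atp6v1a, Atp6v0a4, Car12, Car5b and Slc4a4) and for 3.01% of all genes. Separation with KO higher was found for 1 of the 54 (Atp6v0b) and for 2.29% of all genes. Without KO replicate 2 the counts were 8 with KO lower and 6 with KO higher, against 5.54% and 5.59% of all genes.

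Subunit B exists as B1 (Atp6v1b1), the isoform of intercalated cells whose loss in people causes distal renal tubular acidosis with deafness, and B2 (Atp6v1b2), found in most cells. Atp6v1b1 was at 48.3, 48.9, 50.4 and 50.04 FPKM in KO mice, and at 46.2, 53.5, 48.2 and 46.7 FPKM in WT mice. The KO values sat inside the WT range, KO replicate 2 included (log2 fold change 0.04 ± 0.08 SE). Atp6v1b2 was at 155, 119, 142 and 162 FPKM in KO mice, and at 163, 154, 170.1 and 164 FPKM in WT mice. The lowest value was that of KO replicate 2, and the other KO values overlapped WT. Per length, B1 made up 25.6% ± 2.59 of summed B isoform FPKM in KO mice and 23.0% ± 1.83 in WT mice (SD, n = 4 each), with overlap between the groups.

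The other intercalated-cell isoforms of V1 were less abundant. Atp6v1c2, subunit C2, averaged 11.7 ± 1.14 FPKM in KO and 11.1 ± 0.314 FPKM in WT mice (SD, n = 4 each). Its widespread counterpart Atp6v1c1 averaged 42.5 ± 3.23 FPKM in KO and 46.5 ± 1.39 FPKM in WT mice. Atp6v1g3, subunit G3, was at 11.9, 19.3, 10.9 and 9.35 FPKM in KO mice, and at 11.8, 11.0, 9.27 and 11.3 FPKM in WT mice. KO replicate 2 was far above the WT range and KO replicate 1 just above it, and the log2 fold change was 0.20 ± 0.20 (SE) with it and -0.02 without it. Its counterpart Atp6v1g1 behaved alike in that mouse, at 152, 207, 151 and 138 FPKM in KO and 158, 152, 142 and 166 FPKM in WT mice. C2 took 21.7% ± 2.63 of the C isoforms in KO and 19.3% ± 0.508 in WT mice, and G3 took 7.12% ± 0.955 of the G isoforms in KO and 6.45% ± 0.355 in WT mice.

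The most abundant V1 genes had the same pattern by mouse. Atp6v1f, subunit F, was at 169.6, 275, 181 and 175 FPKM in KO mice, and at 180.4, 165, 175 and 180.3 FPKM in WT mice. Atp6v1e1, a stator subunit, was at 177, 227, 176 and 174 FPKM in KO mice, and at 178, 180.4, 188 and 190.3 FPKM in WT mice. In both, KO replicate 2 was far above the other 7 mice, and for Atp6v1e1 the other KO values lay below all WT values. Atp6v1d and Atp6v1h, rotor and regulatory subunits, averaged 77.9 and 50.8 FPKM in KO and 78.1 and 50.3 FPKM in WT mice. Atp6v1g2, known from neurons, was at 1.79 to 2.85 FPKM in KO and 2.02 to 2.84 FPKM in WT mice. The V1 median log2 fold change was 0.03 with all mice and -0.08 without KO replicate 2.

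The V0 part sits in the membrane and carries the protons. Its subunit a4 (Atp6v0a4), the isoform of intercalated cells and part of the proximal tubule whose loss also causes distal renal tubular acidosis, was at 79.2, 57.1, 73.7 and 86.3 FPKM in KO mice, and at 89.8, 89.5, 88.5 and 93.7 FPKM in WT mice. Every KO value was below every WT value, with KO replicate 2 lowest and KO replicate 4 close to WT. Its log2 fold change was -0.28 ± 0.11 (SE, 95% interval -0.52 to -0.04, limma adjusted p = 0.78), and -0.19 without KO replicate 2 (adjusted p = 0.35). Atp6v0a4 lies on chromosome 6 from 38048483 to 38124586 (mm10, minus strand) and shares exon bases with Tmem213 on the opposite strand and D630045J12Rik on the same strand, so some of its reads may be theirs.

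Among the other a isoforms, Atp6v0a1 was at 20.7, 15.4, 21.1 and 19.8 FPKM in KO mice, and at 16.3, 18.4, 18.3 and 18.5 FPKM in WT mice. KO replicates 1, 3 and 4 lay above all WT mice and KO replicate 2 below them (log2 fold change 0.11 ± 0.10 SE, and 0.18 without KO replicate 2). The ratio of Atp6v0a4 to Atp6v0a1 within a mouse was 3.83, 3.72, 3.49 and 4.35 in KO and 5.53, 4.86, 4.83 and 5.06 in WT mice. The groups did not overlap in this ratio, KO replicate 2 included. With Atp6v0a2 and Tcirg1 (subunit a3) also counted, a4 made up 56.1%, 62.1%, 55.2% and 59.4% of the a isoforms in KO mice, and 63.4%, 62.0%, 61.4% and 64.1% in WT mice. Here KO replicate 2 lay within the WT range, and its Atp6v0a2 was at 10.8 FPKM, against 26.5 to 29.9 FPKM in the other KO and 23.9 to 27.0 FPKM in the WT mice. No test was made of the ratio or the shares. Atp6v0a1 is on chromosome 11, as is C1qtnf1, and whether DNA of the stem cell strain remains near it was not tested.

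**Figure D3:**
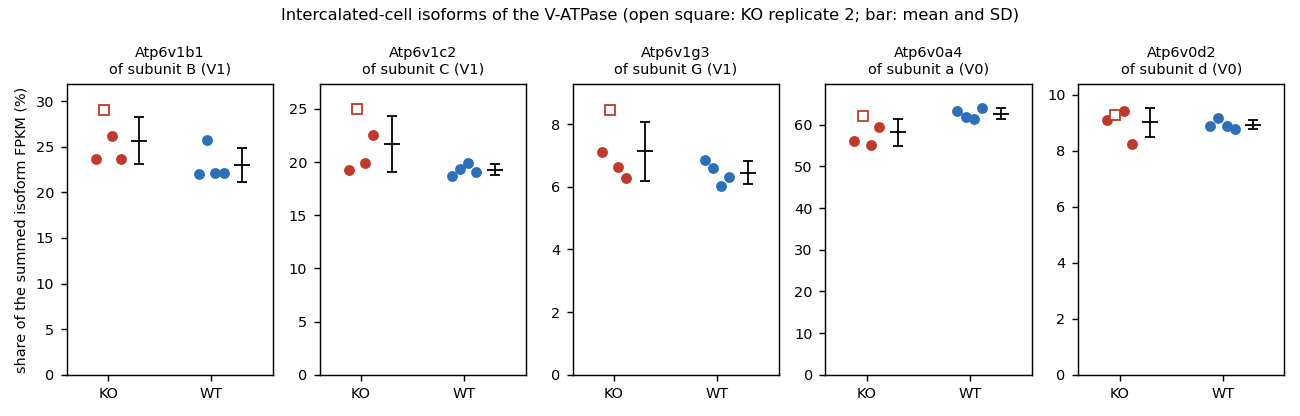
Share (%) of the intercalated-cell isoform in the summed FPKM of all isoforms of a pump subunit, per mouse, KO left of WT, with mean and SD (n = 4 each). Subunit a4 averaged 58.2% in KO and 62.7% in WT mice, and KO replicate 2 alone of the KO mice lay within the WT range. For B1, C2, G3 and d2 the groups overlapped as well.

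The remaining V0 genes form the proton-carrying ring and its fittings. Atp6v0b, ring subunit c'', was at 109, 145, 117 and 112 FPKM in KO mice, and at 106, 102, 99.1 and 103 FPKM in WT mice. All KO values were higher, that of KO replicate 2 by most (log2 fold change 0.24 ± 0.12 SE, limma adjusted p = 0.84, and 0.12 without KO replicate 2). Atp6v0c, the main ring subunit, averaged 127 ± 5.62 FPKM in KO and 119.6 ± 8.6 FPKM in WT mice. The kidney isoform Atp6v0d2 averaged 6.56 ± 0.707 FPKM in KO and 6.46 ± 0.102 FPKM in WT mice, and its widespread counterpart Atp6v0d1 66.2 ± 4.34 FPKM in KO and 66 ± 0.52 FPKM in WT mice (SD, n = 4 each). Atp6v0e and Atp6v0e2 were at 27.7 to 38.1 and 28.6 to 34.3 FPKM in KO, and at 26.1 to 29.7 and 26.7 to 32.9 FPKM in WT mice.

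Taking the pump as a whole, its 22 genes in the table summed to 1518, 1707, 1479 and 1500.2 FPKM in KO mice, and to 1526, 1509, 1535 and 1579 FPKM in WT mice. KO replicate 2 was the highest of the 8 mice. The mean was 1551 FPKM in KO and 1537 FPKM in WT mice, but 1499 FPKM in KO mice without KO replicate 2, so the order of the means turned on that mouse. The 5 intercalated-cell isoforms (B1, C2, G3, a4 and d2) had a median log2 fold change of 0.04, and their 5 widespread counterparts 0.02. Without KO replicate 2 these were -0.02 and -0.08.

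Among the carbonic anhydrases, the cytosolic enzyme Car2 was highest, at 227, 270.2, 237 and 219 FPKM in KO mice, and at 234, 229.6, 230.3 and 233 FPKM in WT mice. The KO values lay on both sides of a narrow WT range (log2 fold change 0.06 ± 0.11 SE). Car2 serves intercalated cells and the proximal tubule alike, and its loss in people also causes renal tubular acidosis.

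Car12, a transmembrane enzyme that works outside the cell, had the lowest p of the set. It was at 87.4, 67.0, 79.8 and 80.5 FPKM in KO mice, and at 93.9, 96.9, 102 and 94.0 FPKM in WT mice. Every KO value lay below every WT value, with and without KO replicate 2. Its log2 fold change was -0.28 ± 0.09 (SE, 95% interval -0.48 to -0.08, unadjusted p = 0.0103 and adjusted p = 0.67 in limma), and -0.23 without KO replicate 2 (limma adjusted p = 0.27). Its locus is on chromosome 9 from 66713686 to 66766845 (mm10, plus strand), and no other annotated exon overlaps it.

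Car14, another transmembrane enzyme of the proximal tubule and loop, was at 42.8, 41.7, 44.5 and 44.5 FPKM in KO mice, and at 44.1, 64.9, 66.1 and 55.9 FPKM in WT mice. The KO mice were close together and WT replicate 1 sat among them, while the other WT mice were higher. This was a log2 fold change of -0.37 ± 0.14 (SE; adjusted p = 0.75 in limma). Car14 shares exon bases with Aph1a on the opposite strand. Car4, the lipid-anchored enzyme of the proximal brush border, was at 85.3, 90.5, 92.5 and 79.0 FPKM in KO mice, and at 64.6, 87.6, 99.5 and 67.7 FPKM in WT mice, so its WT values spanned the KO values. WT replicate 1 was the lowest of the WT mice for both Car4 and Car14.

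Lower in level, the mitochondrial enzyme Car5b was at 16.8, 17.7, 16.3 and 19.2 FPKM in KO mice, and at 20.4, 19.5, 19.4 and 19.2 FPKM in WT mice. The highest KO value and the lowest WT value nearly met (log2 fold change -0.14 ± 0.08 SE). Car9, a transmembrane enzyme known to be induced by low oxygen, was at 2.6, 5.46, 5.04 and 7.01 FPKM in KO mice, and at 7.56, 7.95, 6.94 and 5.78 FPKM in WT mice. KO replicate 1 was far below the rest, and the log2 fold change of -0.45 had a wide 95% interval, from -0.93 to 0.03. Car8, which lacks the catalytic activity of the family, was at 2.35, 1.37, 1.8 and 2.16 FPKM in KO mice, and at 1.7, 1.57, 1.2 and 1.29 FPKM in WT mice. Its KO values lay above WT except for KO replicate 2 (log2 fold change 0.26 ± 0.11 SE, limma adjusted p = 0.82, and 0.34 with adjusted p = 0.27 without KO replicate 2).

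Car3, Car5a, Car7 and Car11 averaged 7.8, 1.51, 1.98 and 1.85 FPKM in KO and 8.96, 1.59, 2.22 and 1.92 FPKM in WT mice, and each overlapped between the groups. Car15, which in rodents is a membrane-anchored kidney enzyme, had only 0 to 4 reads in a library. It shares exon bases with Gm20518 on the same strand, and how reads on shared bases were counted is not given. Its low count therefore does not show that the gene was silent. Car1 and Car6, known from red cells and saliva, had at most 1 read in a library. Car13 was at 0.577 to 1.19 FPKM in the 8 mice. The median log2 fold change of the tested carbonic anhydrases was -0.10, or -0.09 without KO replicate 2.

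**Figure D4:**
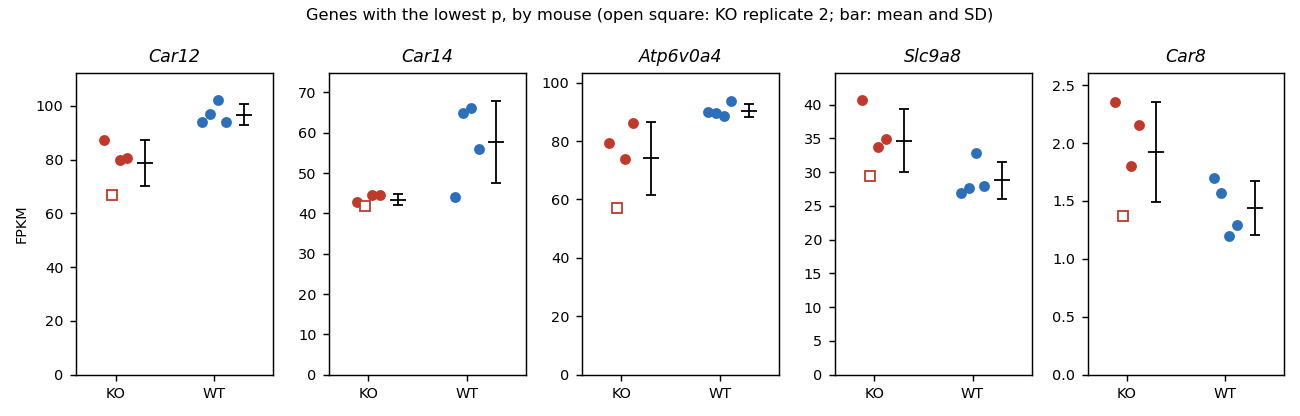
FPKM per mouse of the 5 genes with an unadjusted p under 0.05, KO left of WT, with mean and SD (n = 4 each) and each axis starting at 0. The groups do not overlap for Car12 and Atp6v0a4, while 1 WT mouse lies among the KO values of Car14.

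The Slc4 genes carry bicarbonate. NBCe1 (Slc4a4), the basolateral exit of bicarbonate from the proximal tubule, was at 188, 85.4, 179 and 169 FPKM in KO mice, and at 203, 190.1, 189 and 199 FPKM in WT mice. KO replicate 2 had less than any other mouse by a wide gap, and the remaining KO values lay just below WT. With all mice the log2 fold change was -0.37 ± 0.20 (SE; adjusted p = 0.85 in limma), and without KO replicate 2 it was -0.13 (adjusted p = 0.46).

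AE1 (Slc4a1), the basolateral exchanger of type A cells, was at 11.1, 6.23, 11.9 and 12.9 FPKM in KO mice, and at 10.7, 11.3, 10.4 and 10.1 FPKM in WT mice. Its log2 fold change was -0.04 ± 0.16 (SE), and 0.15 (limma adjusted p = 0.47) without KO replicate 2, the only KO mouse below all WT mice. Red blood cells also make AE1. The 8 red cell markers summed to 683 to 966 FPKM in KO and 442 to 1317 FPKM in WT mice, and the 2 WT mice with the highest sums, replicates 3 and 4, had the lowest Slc4a1 of the WT group. The part of blood in the Slc4a1 level was not tested. AE4 (Slc4a9), the basolateral transporter of type B cells, was at 19.4, 20.3, 23.3 and 20.4 FPKM in KO mice, and at 20.6, 22.9, 20.5 and 20.05 FPKM in WT mice, and its interval was narrow (log2 fold change 0.01, 95% interval -0.19 to 0.21).

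AE2 (Slc4a2), an exchanger of the thick ascending limb and collecting duct, was at 23.4, 10.1, 23.9 and 24.6 FPKM in KO mice, and at 21.8, 22.2, 21.9 and 20.02 FPKM in WT mice. Its 3 other KO values were above all WT values and KO replicate 2 was far below them, so the log2 fold change of -0.12 ± 0.22 (SE) became 0.14 without that mouse. Slc4a3, the exchanger of heart and nerve, averaged 2.16 ± 0.197 FPKM in KO and 2.48 ± 0.368 FPKM in WT mice. Slc4a7 and Slc4a11 averaged 1.21 and 3.59 FPKM in KO and 1.18 and 3.1 FPKM in WT mice. Slc4a8, which in type B cells works with pendrin, was below the level tested at 0.785 ± 0.16 FPKM in KO and 0.788 ± 0.104 FPKM in WT mice, and Slc4a5 and Slc4a10 were lower still.

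Of the Slc26 anion exchangers, pendrin (Slc26a4), the apical exchanger of type B cells, was at 24.6, 21.4, 25.2 and 27.3 FPKM in KO mice, and at 24.5, 26.7, 26.8 and 25.5 FPKM in WT mice. The groups overlapped throughout, and the 95% interval of the log2 fold change of -0.05 ran from -0.24 to 0.14. The ratio of Slc26a4 to Slc4a1, which sets a type B gene against a type A gene, was 2.22, 3.44, 2.11 and 2.12 in KO and 2.29, 2.37, 2.57 and 2.52 in WT mice. KO replicate 2 was highest, and the other KO ratios lay just below the WT ratios. Slc26a1, the basolateral sulfate and oxalate exchanger of the proximal tubule, was the most abundant of the family, with 51.8, 35.7, 52.1 and 47.5 FPKM in KO and 47.8, 56.3, 56.1 and 48.6 FPKM in WT mice.

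Slc26a6, an apical oxalate and chloride exchanger, averaged 5.53 ± 0.902 FPKM in KO and 5.68 ± 0.921 FPKM in WT mice, and the sulfate transporter Slc26a2 2.82 ± 0.415 FPKM in KO and 3.09 ± 0.356 FPKM in WT mice. Slc26a11 lies on chromosome 11 from 119355557 to 119381079 (mm10), in the stretch around C1qtnf1 where DNA of the stem cell strain may remain. It was at 6.73, 4.46, 5.91 and 5.17 FPKM in KO and 4.91, 7.14, 5.43 and 6.00 FPKM in WT mice, with full overlap. Atp6v0a1 and Slc4a1, from 101009452 and 102348824, and Car4 and Foxi1 are on the same chromosome, farther from C1qtnf1. Whether DNA of the stem cell strain remains near them was not tested. Slc26a7, a chloride and bicarbonate transporter of type A cells, was at 0.252 to 0.453 FPKM in KO and 0.212 to 0.363 FPKM in WT mice, and Slc26a3, Slc26a8, Slc26a9 and Slc26a10 were also below the level tested.

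The Slc9 genes exchange sodium for protons. NHE3 (Slc9a3), the main apical exchanger of the proximal tubule, was at 43.3, 17.9, 52.7 and 52.4 FPKM in KO mice, and at 50.6, 49.3, 50.9 and 45.6 FPKM in WT mice. KO replicate 2 was again the low value. With it the log2 fold change was -0.32 ± 0.27 (SE; adjusted p = 0.87 in limma), and without it 0.00034. NHE8 (Slc9a8), an apical exchanger of the proximal tubule best known from early life, was at 40.6, 29.4, 33.7 and 34.9 FPKM in KO mice, and at 26.9, 27.6, 32.9 and 27.9 FPKM in WT mice. KO replicates 1, 3 and 4 were above all WT mice, while KO replicate 2 was below WT replicate 3. For this gene the log2 fold change was 0.27 ± 0.11 (SE, 95% interval 0.04 to 0.51, limma adjusted p = 0.78), and 0.32 (adjusted p = 0.27) without KO replicate 2.

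KO replicate 2 thus had the lowest Slc9a3 of the 8 mice, but not the lowest Slc9a8. NHE2 (Slc9a2) averaged 19.8 ± 4.23 FPKM in KO and 21.9 ± 1.23 FPKM in WT mice, and the groups overlapped. Slc9a4, Slc9a5, Slc9a7 and Slc9a9 were below 1 FPKM in every mouse.

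The 5 single genes mark intercalated cells or ammonia transport. Foxi1 was at 8.83, 5.88, 8.82 and 8.05 FPKM in KO mice, and at 9.31, 9.28, 8.65 and 9.57 FPKM in WT mice. KO replicate 2 was lowest and 2 KO mice lay above WT replicate 3 (log2 fold change -0.19 ± 0.11 SE, limma adjusted p = 0.85, and -0.10 without KO replicate 2). Rhcg, the apical ammonia channel of the collecting duct, averaged 48.4 ± 1.95 FPKM in KO and 47.8 ± 2.32 FPKM in WT mice (SD, n = 4 each), a log2 difference of 0.04 with a 95% interval from -0.13 to 0.21. Rhbg, its basolateral relative, was at 24.5, 24.6, 23.7 and 22.9 FPKM in KO mice, and at 20.0, 23.1, 24.2 and 20.7 FPKM in WT mice, with overlap.

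Kit, a receptor kinase used as a mark of type A cells, was at 2.86, 2.25, 3.3 and 3.55 FPKM in KO mice, and at 3.76, 3.99, 3.09 and 3.18 FPKM in WT mice. Mast cells also carry Kit; their 7 markers summed to 0.151 to 0.295 FPKM in KO and 0.0617 to 0.144 FPKM in WT mice, with Mcpt4, Tpsab1 and Fcer1a at 0 in all. Insrr, a receptor that senses alkali and marks type B cells, was at 7.9, 5.15, 8.69 and 8.69 FPKM in KO mice, and at 7.6, 9.61, 8.74 and 8.69 FPKM in WT mice. For both genes KO replicate 2 was the lowest of the 8 mice, and the other KO values overlapped WT.

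Wider marker lists of the intercalated cells share genes with the set. The 4 type A markers (Slc4a1, Kit, Aqp6 and Dmrt2) summed to 30.1 to 48.0 FPKM in KO and 40.02 to 45.5 FPKM in WT mice. Without KO replicate 2 the KO range was 41.1 to 48.0 FPKM. The 4 type B markers (Slc26a4, Slc4a9, Insrr and Hmx2) summed to 53.8 to 66.6 FPKM in KO and 58.6 to 66.9 FPKM in WT mice. Leaving out KO replicate 2, the KO range was 57.1 to 66.6 FPKM. All 8 markers were detected in every mouse and none passed the test. The 11 markers of both types, 8 of them in the set, summed to 295, 256, 286 and 301 FPKM in KO mice, and to 298, 310.3, 298 and 314 FPKM in WT mice. In this sum KO replicates 1, 2 and 3 lay below all WT mice and KO replicate 4 among them, and none of the 11 genes passed the test. Gene by gene, 7 of the 11 had a log2 fold change above 0, beside 47.2% of all genes tested. Their median was 0.04, or -0.02 without KO replicate 2. The sum weighs abundant genes most. Of these, Atp6v0a4 averaged 74.1 FPKM in KO and 90.4 FPKM in WT mice, and Tfcp2l1 43.1 FPKM in KO and 51.6 FPKM in WT mice. Among markers of other cells, the 7 of the urothelium, the lining of the renal pelvis, summed to 14.8 to 34.1 FPKM in KO and 3.98 to 10.2 FPKM in WT mice, and the 7 immediate early and heat shock genes to 92.9 to 139 FPKM in KO and 50.2 to 68.5 FPKM in WT mice. These sums separated the groups, and their part in the values of the acid-base genes was not tested.

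KO replicate 2 departed from its group in a way that followed gene length, here the length fitted to the FPKM steps. It was the lowest of the 8 mice for 26 of the 54 genes (48.1%, against 42.5% of all genes tested) and the highest for 14 (25.9%, against 24.4%). Its difference from the mean of the other 3 KO mice was above 0 for 18 of the 20 genes shorter than 2 kb, with a median of 0.23 on the log2(FPKM + 1) scale. For the 22 genes longer than 3 kb it was below 0 in 21, with a median of -0.32. Between 2 and 3 kb, 6 genes were above and 6 below 0. The largest departures were -1.30 (Slc9a3), -1.18 (Atp6v0a2) and -1.06 (Slc4a2) on one side and 0.90 (Atp6v1g3) and 0.76 (Atp6v1f) on the other. Over all genes tested, this difference was above 0 for 2780 of 3454 genes under 2 kb, with a median of 0.33. It was below 0 for 4375 of 6046 genes over 3 kb, with a median of -0.22.

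Across the 54 genes the Spearman correlation of this difference with gene length was -0.67, and across all 12118 genes it was -0.57. With exon lengths of the GENCODE M21 annotation in place of lengths fitted to the FPKM steps it was -0.53 over 53 genes of the set. Over all 12077 tested genes with such a length it was -0.49. The points share 1 library and its depth, and genes are not independent replicates, so no p is given. By the fitted lengths, most subunits of the pump are short and most transporters long. Exon lengths of M21 are longer for many pump genes, such as 4110 against 1203 bases for Atp6v1e1 and 9746 against 1976 bases for Atp6v1h. KO replicate 2 was the highest mouse for 12 and the lowest for 7 of the 21 tested pump genes, the lowest for 5 of 7 Slc4 genes, 4 of 5 Slc26 genes and 4 of 5 Slc9 genes, and the highest for none of these transporters. The cause was not tested.

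**Figure D5:**
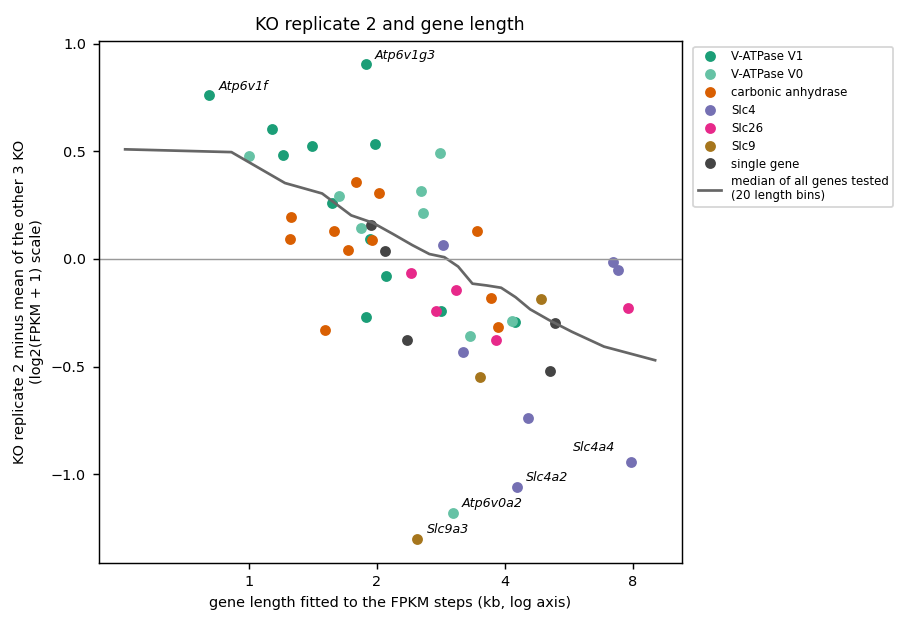
Difference of KO replicate 2 from the mean of the other 3 KO mice (log2(FPKM + 1) scale) against gene length (kb, log axis) for 52 of the 54 genes, coloured by family, with the median of all genes tested in 20 length bins as a line. Short pump genes such as Atp6v1f lie above 0, and long transporter genes such as Slc4a4 lie below it.

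Genes that work with these transporters were also counted, in 5 lists with 46 tested genes. None passed at an adjusted p under 0.05 with all mice, and 1 did without KO replicate 2 (limma). Of all genes tested, 0.0413% and 0.173% passed in these fits. Of 14 pump accessory and assembly genes, 9 had a log2 fold change above 0, with a median of 0.03. The lowest p were those of Ccdc115, an assembly factor, at 8.35 ± 0.857 FPKM in KO and 7.10 ± 0.113 FPKM in WT mice, and Wdr7, a pump regulator, at 4.61 ± 1.2 FPKM in KO and 5.32 ± 0.407 FPKM in WT mice.

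All 8 tested genes of ammonia production and glutamine handling had a log2 fold change below 0, with a median of -0.16, or -0.12 without KO replicate 2. Among all genes tested 47.2% were above 0. Of the cell marker lists, 1 of 7 proximal tubule genes was above 0 (median -0.17, or -0.001 without KO replicate 2). In the thick ascending limb list 0 of 5 were above 0 (median -0.11, or -0.10), and in the principal cell list 5 of 6. Slc38a3, the basolateral glutamine transporter that feeds ammonia production in the proximal tubule, was at 9.33, 11.8, 12.5 and 14.0 FPKM in KO mice, and at 19.6, 16.1, 15.8 and 16.6 FPKM in WT mice. Every KO value was below every WT value, and KO replicate 2 was not the lowest. Its log2 fold change was -0.47 ± 0.12 (SE; adjusted p = 0.42 in limma), and -0.50 without KO replicate 2 (adjusted p = 0.17). Glud1, the glutamate dehydrogenase that releases ammonia in mitochondria, was at 192, 163, 199.8 and 199 FPKM in KO mice, and at 224, 220.03, 205 and 231 FPKM in WT mice, again with no overlap (log2 fold change -0.20 ± 0.09 SE, limma adjusted p = 0.82). Both genes are shown for their low p, and 3.01% of all genes separated in this way.

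Among 9 tested pumps and channels, 2 had a log2 fold change above 0. Among 8 partners of the exchangers, Chp1 averaged 53.8 ± 7.16 FPKM in KO and 63.6 ± 4.14 FPKM in WT mice, and Ahcyl1, which regulates NBCe1, 65.6 ± 6.9 FPKM in KO and 74.2 ± 4.02 FPKM in WT mice. Among 7 genes of sensing and control, Agtr1a, the angiotensin receptor, averaged 20.2 ± 1.34 FPKM in KO and 23.4 ± 1.24 FPKM in WT mice, and the endothelin receptor Ednrb 5.37 ± 1.62 FPKM in KO and 6.89 ± 0.784 FPKM in WT mice.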

How the data were processed

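RNA of 8 kidneys was sequenced after poly-T bead selection, per the labels' protocols. The authors deposited 1 table of expression values, read here as FPKM, scaled by them for gene length and depth. Its header names no unit, so this comes from the values: with fitted gene lengths, all 22945 genes above 0 gave whole reads in every library (tolerance 0.002 reads), 5865 of them at the GENCODE M21 exon length. The reads so recovered made up 99.92% to 99.95% of the library totals. Where several lengths gave whole reads the shortest was used, so a length may be too short for single genes. The tools named, per the submitters' processing notes, are STAR 2.5, HTSeq 0.6.1, CASAVA and DESeq2, with build mm10. What each served for, and the strand setting, are not given in sources used here. No column belonged to other samples (0).

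Mice were grouped by genotype, and replicate numbers only name them. FPKM were divided by factors from trimmed means of M values (0.936 to 1.05). Genes with a mean of at least 1 FPKM were tested with limma 3.58.1 in R 4.3.3 (statmod 1.5.0; trend and robust options) on log2(FPKM + 1), all 8 libraries, Benjamini-Hochberg at 0.05, two-sided. Fold changes on this scale understate those of low genes. Alternatives were a pseudocount of 0.1, no filter, no scaling factor, limma-voom on the recovered reads, array weights and leaving out each mouse. The procedure was tested on simulated data, with larger fold changes than any estimated in the set and no library like KO replicate 2. That test therefore does not show the power of the procedure for these genes. The genes, lists and tests were chosen with earlier results of these data known. Values by mouse, group means with SD, or for Car15 the range of reads, are given for genes chosen by rules. In each family these are the 2 most abundant genes and the 2 with the lowest p. Also included are genes of known intercalated or proximal role, and the 2 with the lowest p in each further list. Values for Atp6v0a2, Car5b, Car8, Car9 and Slc26a11 were added for their low p or their position. A few genes under these rules were counted but are not reported here. Sequences are RefSeq's, matched by symbol. Rhbg had no entry in M21 by identifier, so no position is given.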

Additional observations from a re-analysis of the deposited data

Results flagged for a closer look

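Within each group of 4 mice, 1 mouse stood far from the other 3 in 8 of 70 groups examined. Chance gives about 1 in 20 for independent groups, but these groups share the same 8 libraries. The share over all genes was not computed, so the count says nothing particular about this set. In 4 cases the mouse was KO replicate 2: Atp6v1f at 275 FPKM, Atp6v1e1 at 227 FPKM and Atp6v0d1 at 72.7 FPKM were above the other KO mice, and Slc4a2 at 10.1 FPKM was below them. The other cases were in WT mice: Atp6v0d1 at 66.7 FPKM in WT replicate 4, Atp6v0a1 at 16.3 FPKM in WT replicate 1, Atp6v0d2 at 6.61 FPKM in WT replicate 2 and Slc9a8 at 32.9 FPKM in WT replicate 3. For Atp6v0d1 and Atp6v0d2 the WT mice were so close together that a small gap sufficed.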

How the results depend on the processing

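The count of 0 acid-base genes past the threshold held in every alternative. The smallest adjusted p of any named gene was 0.0897 for Car14 with array weights, against 0.75 in the main fit (limma). With array weights Car12 was at 0.096 and Atp6v0a4 at 0.14, against 0.67 and 0.78 in the main fit (adjusted p, limma). The median log2 fold change of the set ran from -0.06 to 0.0037 over the alternatives. Of 34 named genes, 20 kept their direction in all 13 alternatives. With array weights the direction turned for Slc4a1 (0.13), Atp6v0d1 (-0.0511), Atp6v1e1 (-0.08), Atp6v1c2 (-0.0103), Car2 (-0.0151), Atp6v0d2 (-0.0252), Slc4a2 (0.11), Slc26a2 (0.0025) and Atp6v1g1 (-0.0599), and with no scaling factor for Slc4a9 (-0.0124). Leaving out each mouse in turn, the log2 fold change ran from -0.00677 to 0.27 for Atp6v1f, -0.13 to 0.15 for Slc4a1, -0.0499 to 0.0511 for Atp6v0d1, -0.0739 to 0.0933 for Atp6v1e1, -0.0392 to 0.053 for Slc4a9, -0.0232 to 0.34 for Atp6v1g3, -0.0328 to 0.11 for Car2, -0.0455 to 0.0972 for Atp6v0d2, -0.22 to 0.14 for Slc4a2, -0.47 to 0.00034 for Slc9a3, -0.081 to 0.15 for Atp6v1g1 and -0.00028 to 0.0906 for Atp6v1b1. Each of these turned without KO replicate 2, except Atp6v1b1, which turned without WT replicate 1. Genes with an unadjusted p under 0.05 in the set numbered 5, and 10 with array weights, 9 without KO replicate 2, 3 without KO replicate 3, 1 without WT replicate 2 and 2 without WT replicate 3 or 4. Over all genes 5 passed the threshold, and 59 with array weights, 21 without KO replicate 2 or 3, 9 without KO replicate 4 and 3 without WT replicate 1 or 3. In the lists of further genes 1 passed with array weights and 1 without KO replicate 2, against 0 otherwise, so leaving out each mouse gave 0 to 1. The causes were not tested. No paired analysis was possible because no label ties a KO mouse to a WT mouse. With no filter on low values, 70 genes of the set entered the test and 0 passed.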
